A study of Mus musculus with 12 samples.

Results

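The long intergenic noncoding RNAs (lincRNAs) expressed in isolated, perfused mouse hearts were examined in 12 RNA sequencing libraries. They were chosen by level: a gene that the deposited tables class as lincRNA had to reach a mean FPKM (fragments per kilobase of transcript, scaled to library depth, so a level per length) of 1 over all 12 libraries, and Malat1, Neat1, Gas5 and the Snhg genes were set apart by name. The rule kept 137 genes of 5082 lincRNA rows and 52858 rows in all. Of the lincRNA rows, 1979 had a read in any library, 143 reached 1 FPKM and 6 of these were set apart by name. The level itself is therefore a description. The rule itself uses no comparison between groups, but it was set with earlier results of these data known. Also, 5 of the genes owe their place to one perfusion: 1 (Gm44698) was below 1 FPKM on average in non-IR hearts and 4 were below it in IR hearts.

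The 4 groups held 3 hearts each, and all hearts came from male mice of 3 to 5 months. C57-non-IR and C57-IR hearts were from C57BL/6J mice, the background strain, and Slit2-non-IR and Slit2-IR hearts were from heterozygous Slit2-Tg mice, which carry a full-length human SLIT2 cDNA under a CMV promoter. The transgene was injected into oocytes of C57 × CBA F1 mice, and it is not restricted to one cell type. IR hearts were perfused for 20 min on a Langendorff apparatus, held without flow for 20 min of global ischemia and reperfused for 40 min, whereas non-IR hearts were perfused without interruption for 80 min. The labels give the genotype, and the IR state was read from the letters of each library's label against the groups of the methods. A difference between Slit2-Tg and C57BL/6J hearts cannot be told apart from one due to the line's origin or to the site of the transgene.

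LincRNAs are transcribed by RNA polymerase II, mostly spliced and polyadenylated like mRNAs, but have no long conserved reading frame. Some stay near their gene and affect transcription of neighbours, some bind proteins or microRNAs in the cytoplasm, and a few rows still carried as lincRNA have since been found to encode small proteins. In the heart, lincRNAs are known for roles in the commitment of cardiac cells, such as that of Braveheart (Bvht), and as hosts of microRNAs. In RNA from heart tissue, fewer cells of a type and less RNA per cell cannot be told apart.

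The libraries held 16601154 to 24841291 reads on genes, and the 137 lincRNAs took 0.151% to 0.188% of the reads outside the mitochondrial genes. That share was 0.178% to 0.188% in the 6 non-IR hearts and 0.151% to 0.178% in the 6 IR hearts. Cardiomyocyte markers summed to 16648 to 19128 FPKM in replicate 1 of the 4 groups and to 12583 to 15153 FPKM in replicates 2 and 3. Summed atrial markers were at 38.1 to 257 FPKM in 11 libraries and at 1788.8 FPKM in Slit2-IR replicate 1. All 8 atrial marker genes were found, and their sums were 38.1 to 124 FPKM in non-IR hearts and 79.1 to 1788.8 FPKM in IR hearts. The 8 lung markers summed to at most 12.4 FPKM, the 8 adipose markers to at most 17.3 FPKM, the 8 blood markers to at most 49.3 FPKM and the 8 skeletal muscle markers to at most 3.6 FPKM. Endothelial markers summed to 146 to 220 FPKM, fibroblast markers to 113 to 231 FPKM, mesothelial markers to 0.872 to 5.66 FPKM, and neural and glial markers to 3.0 to 7.1 FPKM. The mouse Slit2 row, which does not represent the human cDNA and so is no check of it, was at 0.18 to 0.282 FPKM in C57BL/6J hearts, at 0.169 to 0.184 FPKM in Slit2-non-IR hearts and at 0.153, 0.813 and 0.0847 FPKM in Slit2-IR hearts.

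The lincRNAs spanned a wide range of levels. Their median was 2.09 FPKM, 64 of them lay between 1 and 2 FPKM, 43 between 2 and 5 FPKM, 15 between 5 and 10 FPKM, and 15 at 10 FPKM or more. Together they carried 74.5% of the summed FPKM of all lincRNA rows, and the 5 highest made up 33.0% of that of the 137. None lay on chromosome X or Y, where 27 lincRNA rows had a read. At the edge of the rule, 1810012K08Rik (1.03 FPKM), Gm13056 (1.01 FPKM) and Gm12295 (1.0025 FPKM) were the last to be kept, and 4632404H12Rik (0.981 FPKM), 1110020A21Rik (0.978 FPKM) and AC102435.2 (0.968 FPKM) were the first to be left out. In single libraries 1110020A21Rik reached 1.63 FPKM and Gm13056 fell as low as 0.256 FPKM, so the spread over libraries was far wider than the gap at the threshold.

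**Figure D1:**
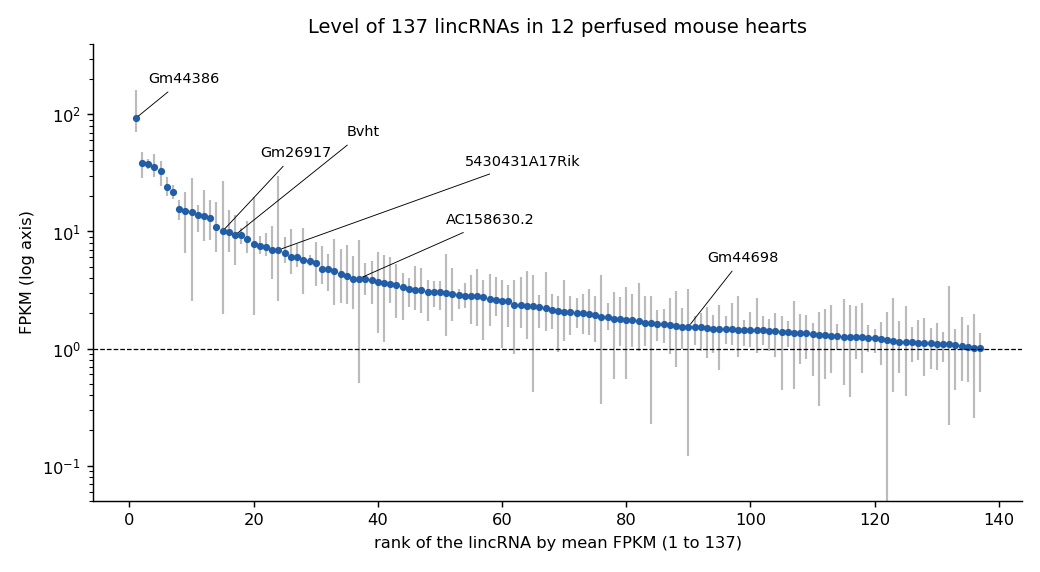
FPKM of the 137 lincRNAs (vertical log axis) by rank of the mean over 12 libraries (horizontal axis); points are means, grey lines run from the lowest to the highest library and stop at the lower edge for 2310075C17Rik, which was at 0 in one library, and the dashed line marks 1 FPKM. Gm44386 stands at 92.7 FPKM, more than the next lincRNA at 38.5 FPKM, and 64 lincRNAs sit between 1 and 2 FPKM.

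Gm44386, a 2-exon lincRNA of 429 counted bases on chromosome 6 whose role is not known, was the highest at 92.7 FPKM, with 70.4 to 161 FPKM in single libraries. The highest value belonged to C57-non-IR replicate 1, and the other 11 libraries were at 70.4 to 110 FPKM. Gm5532 followed at 38.5 FPKM (28.7 to 47.4 FPKM). 2900097C17Rik, the mouse Norad RNA, which binds Pumilio proteins in the cytoplasm, was at 37.5 FPKM and was the steadiest of all: its 12 libraries lay between 34.5 and 41.5 FPKM, with a coefficient of variation within groups of 5.54%. 1700020I14Rik, also called Cyrano or Oip5os1 and known for triggering the decay of the microRNA miR-7, was at 32.8 FPKM (24.7 to 40.3 FPKM).

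Other abundant rows are known for proteins or for coding relatives. 1810058I24Rik encodes mitoregulin, a small protein of the inner mitochondrial membrane, and was at 21.7 FPKM (18.9 to 25.2 FPKM). Lsmem2, whose symbol is that of a membrane protein gene, was at 35.5 FPKM (29.3 to 45.6 FPKM), and Tmem250-ps, a pseudogene, at 24.1 FPKM (20.1 to 29.2 FPKM). AW112010, an RNA induced in immune cells that yields a small protein in macrophages, was at 14.97 FPKM and ranged from 6.59 to 21.8 FPKM. The remaining members of the 12 highest were 2310040G24Rik (15.5 FPKM), Gm26532 (14.8 FPKM), Gm43672 (13.7 FPKM) and AC159238.2 (13.5 FPKM). Relative to its level, Gm26532 had the widest range of the 12, from 2.57 to 28.8 FPKM.

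As a class, the lincRNAs were short and close to coding genes. The median counted length was 1009 bases (194 to 9180), the median span in the genome was 5323 bases, and 12 of 136 found in the GENCODE M21 annotation (GRCm38) had a single exon. M21 classes 125 of them as lincRNA still. The nearest protein-coding gene lay a median of 7665 bases away, against 13097.5 bases for the 1836 lincRNA rows with reads but a mean below 1 FPKM. Of the 137, 31 (22.6%) started head to head with a protein-coding gene within 1 kb on the opposite strand, against 226 of 1836 (12.3%) of the lower rows. Such pairs included Gm43050 with Tbx5, which encodes a cardiac transcription factor, and Gm17501 with Cyr61. Of the 137, 19 overlapped a protein-coding gene, 4 on its strand and 15 on the other, and 10 shared exon bases with one. Whether strand was used in counting is not given in the sources used here, so reads of these overlapping pairs cannot be assigned with certainty. These shares are descriptions of the annotation, with no test.

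A polyadenylation hexamer (AATAAA or ATTAAA) stood in the last 50 bases of the longest M21 transcript for 78 of 136 lincRNAs (57.4%), for 868 of 1825 lower lincRNA rows (47.6%) and for 9905 of 13313 protein-coding genes tested (74.4%). The last 60 bases of the lincRNAs that the comparisons turn on are given here, taken from the M21 transcripts, to show which of them end in such a signal. The hexamer is in capitals.
4632415L05Rik: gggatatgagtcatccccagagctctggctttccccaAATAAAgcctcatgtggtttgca
AU020206: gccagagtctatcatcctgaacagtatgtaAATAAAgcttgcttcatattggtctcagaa
AC158630.2: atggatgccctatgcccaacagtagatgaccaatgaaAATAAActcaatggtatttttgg
Gm17501: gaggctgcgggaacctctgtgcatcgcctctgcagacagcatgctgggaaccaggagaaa
Dubr: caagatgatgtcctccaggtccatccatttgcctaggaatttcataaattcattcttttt
Gm44698: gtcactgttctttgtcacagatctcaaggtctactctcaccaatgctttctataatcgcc
Gm26917: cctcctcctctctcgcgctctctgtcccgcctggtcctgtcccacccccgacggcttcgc
The first 3 carry the hexamer near the end, and the other 4 do not within this window. That of Gm26917 is rich in C, and the whole transcript has a GC content of 69.1% against a median of 47.6% for the lincRNAs.

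IR was compared with continuous perfusion first over both genotypes, since this uses all 12 hearts. On the log2(FPKM + 1) scale, which understates changes of low genes, 6 of 136 lincRNAs tested (4.41%) passed an adjusted p of 0.05 by limma's moderated test, against 532 of 15240 genes in all (3.49%). Of these, 3 were higher after IR, Gm26917, Gm17501 and Gm44698, where 2.34% of all genes were called higher. Gm44698 met the level rule only through its IR hearts. The other 3 were lower, 4632415L05Rik, Dubr and AU020206, where 1.15% of all genes were called lower. The split is 2 higher and 5 lower under upper-quartile scaling and under scaling to all nuclear reads, since Gm44698 drops out and Bvht and A330009N23Rik come in. Only Gm26917 passed in each of the 19 alternative fits. The count was 10 with the replicate number as a block, 1 without C57-non-IR replicate 2 or without C57-IR replicate 2, and 2 without Slit2-IR replicate 1, the library with high atrial markers (Gm26917 and Gm17501).

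Below that threshold more lincRNAs lay on the lower side. At an unadjusted p under 0.05, 4 lincRNAs were higher and 20 lower after IR, against 1208 higher (7.93%) and 1214 lower (7.97%) among all genes, or 15.9% in both directions. The median log2 change was -0.04 over the lincRNAs and 0.00 over all genes. Its size rested on single libraries: it was -0.02 without C57-non-IR replicate 1, -0.06 without C57-non-IR replicate 2 or Slit2-IR replicate 3, -0.07 without C57-IR replicate 1 and -0.09 without C57-non-IR replicate 3. The same lean was seen in the 213 lincRNA rows below 1 FPKM that passed the filter, with 8 higher, 33 lower and a median of -0.04, and the 9757 protein-coding genes of the same level range had a median of 0.01. In the 6 rows set apart by name, the median was -0.09, with 1 higher and 1 lower. The 31 genes tested of the RNA exosome, nonsense-mediated decay and related turnover machinery had 0 calls by limma (3 at an unadjusted p under 0.05, all lower) and a median of -0.06. Of 33 tested genes for transcript 3′ end formation, 2 (6.06%) were called and both were lower, against 3.49% of all genes called and 1.15% called lower. Ints5, a subunit of the Integrator complex that ends noncoding transcripts, fell by 0.30 ± 0.06 (SE, adjusted p = 0.0272 by limma). Cstf2t, a form of cleavage stimulation factor, fell by 0.38 ± 0.09 (adjusted p = 0.0473 by limma). Neither passed within a genotype, and a link to the lincRNAs was not tested. The median of that list was 0.02.

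**Figure D2:**
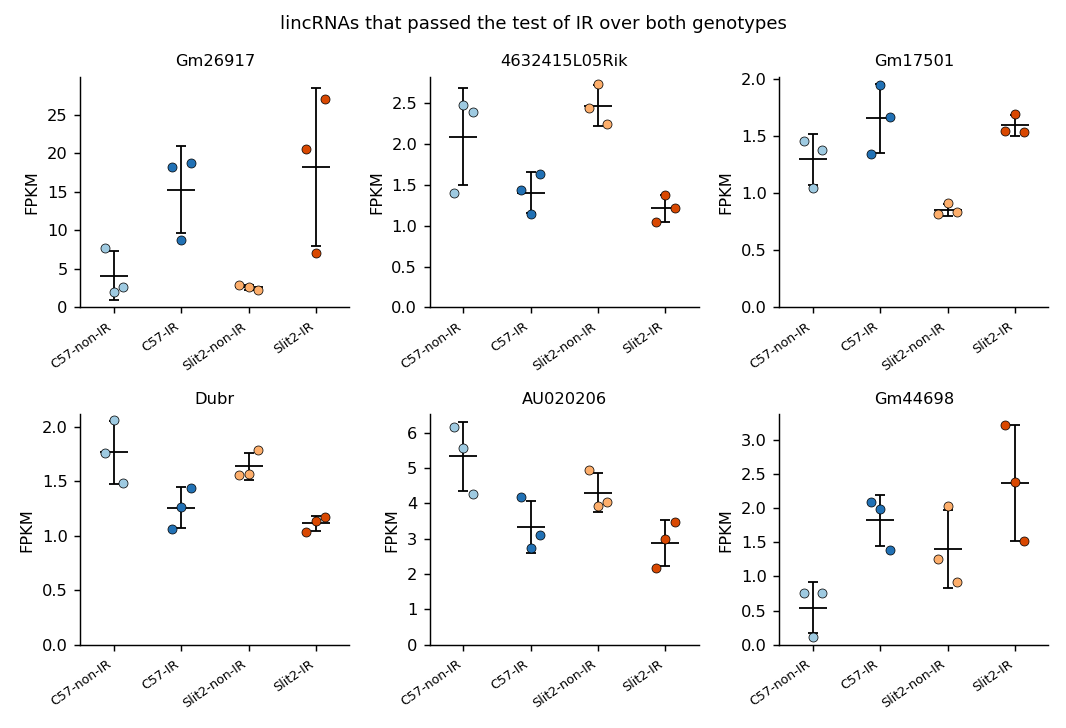
FPKM (vertical axes, from 0) of the 6 lincRNAs called for IR over both genotypes in each of the 4 groups (horizontal axes); each point is 1 heart, and bars are the mean ± SD of 3. Gm26917, Gm17501 and Gm44698 are higher in the IR groups and 4632415L05Rik, Dubr and AU020206 lower, and of the 6 only Dubr has all 6 IR hearts beyond all 6 non-IR hearts. The share of all genes tested that split so is not given.

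Gm26917 showed the largest change with IR of the 136 lincRNAs. It was at 7.78, 1.96 and 2.60 FPKM in C57-non-IR hearts and at 2.88, 2.64 and 2.30 FPKM in Slit2-non-IR hearts. After IR it was at 18.3, 8.82 and 18.8 FPKM in C57BL/6J hearts and at 20.6, 7.02 and 27.1 FPKM in Slit2-Tg hearts. All IR hearts but Slit2-IR replicate 2 were above every non-IR heart, and within each genotype the groups did not overlap. The mean over 6 hearts was 4.99-fold higher, 16.8 ± 7.57 against 3.36 ± 2.19 FPKM (SD, n = 6), a log2 change of 2.0 ± 0.35 (SE, adjusted p = 0.00933). The log2 change was 1.77 ± 0.49 in C57BL/6J hearts (adjusted p = 0.185) and 2.24 ± 0.49 in Slit2-Tg hearts (adjusted p = 0.0747). In Slit2-Tg hearts, where same-numbered libraries deviated together, the fit with the replicate number as a block gave an adjusted p of 0.0217.

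Gm26917 lies at chr17:39843013-39846341 on the plus strand and ends 11 bases before CT010467.1, a row classed as rRNA, and 12 bases before Rn18s-rs5, a RefSeq entry for an 18S ribosomal RNA copy. In such a copy the region before the 18S sequence is the spacer that is removed from the ribosomal RNA precursor. CT010467.1 was at 0.333 to 3.48 FPKM in non-IR hearts and at 0.349 to 3.27 FPKM in IR hearts, so the groups of that row overlapped throughout. Its values in replicate 1 of each group were 0.333 to 1.44 FPKM, and those in replicates 2 and 3 were 1.84 to 3.48 FPKM. Gm26917 has no tested protein-coding gene within 1029141 bases. Rows for near-identical ribosomal copies share reads, and the other models of such loci, Gm42418 and AY036118, were listed at 0 in every library. Whether reads of the ribosomal precursor contribute to its level was not tested.

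Gm17501 (chr3:145650312-145677580, plus strand) begins 331 bases from Cyr61, the gene of a matricellular protein that responds early to growth factors and stretch, and is transcribed away from it. Its promoter is printed because both genes were higher after IR, as the part of the window from 250 bases before to 50 after the RefSeq start that lies outside Cyr61 (chr3:145649982-145650126, GRCm38.p6, plus strand). Those of Dubr (chr16:50732724-50733023, minus strand) and AU020206 (chr7:75782071-75782370, minus strand), which were lower, follow with the whole window. Capitals mark matches on either strand to the motifs searched. These were the cyclic AMP response element core TGACG, the AP-1 site TGANTCA, the TATA box TATAAA and the CArG box. The heat shock pair was also searched, but only in the order GAANNTTC.
Gm17501: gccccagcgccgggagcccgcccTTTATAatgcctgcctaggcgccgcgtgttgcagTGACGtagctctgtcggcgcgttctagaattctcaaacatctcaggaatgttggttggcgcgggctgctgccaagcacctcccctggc
Dubr: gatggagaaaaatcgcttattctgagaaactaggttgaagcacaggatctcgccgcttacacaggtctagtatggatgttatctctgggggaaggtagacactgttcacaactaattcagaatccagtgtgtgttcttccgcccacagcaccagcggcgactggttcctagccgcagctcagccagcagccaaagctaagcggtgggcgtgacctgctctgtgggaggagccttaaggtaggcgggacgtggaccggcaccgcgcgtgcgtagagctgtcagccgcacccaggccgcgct
AU020206: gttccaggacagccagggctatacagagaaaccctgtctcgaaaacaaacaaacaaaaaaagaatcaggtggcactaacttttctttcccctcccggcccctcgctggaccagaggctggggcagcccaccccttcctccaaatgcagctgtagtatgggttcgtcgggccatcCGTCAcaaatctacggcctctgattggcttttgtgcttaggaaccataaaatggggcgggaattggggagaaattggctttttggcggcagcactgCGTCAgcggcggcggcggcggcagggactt
That of Gm17501 holds 1 match to TGACG and 1 to TATAAA on the other strand. The other strand is that of Cyr61, and the TATAAA match lies near the Cyr61 end of the window. Which gene either match serves was not tested. The RefSeq start used for this window lies before the Gm17501 start given above, from which its distance to Cyr61 was counted. The AU020206 window holds 2 matches to TGACG, and that of Dubr holds none of the 5. TGACG stood in 20.8% of all 32841 RefSeq promoters and in 21 of 75 promoters (28.0%) of the 71 lincRNAs with an entry. The shares over all promoters were 7.81% for TGANTCA, 7.86% for GAANNTTC, 13.6% for TATAAA and 1.63% for the CArG box, and 5, 3, 10 and 0 of the 75 held them. Letters in these windows are a description and show no binding.

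Gm17501 was at 1.46, 1.04 and 1.38 FPKM in C57-non-IR and at 0.815, 0.916 and 0.835 FPKM in Slit2-non-IR hearts. It was at 1.34, 1.95 and 1.67 FPKM in C57-IR and at 1.55, 1.70 and 1.54 FPKM in Slit2-IR hearts. C57BL/6J groups overlapped and Slit2-Tg groups did not. Over both genotypes it was 1.51-fold higher after IR, a log2 change of 0.35 ± 0.07 (adjusted p = 0.0218), and in Slit2-Tg hearts alone the change was 0.48 ± 0.10 (adjusted p = 0.0617). Cyr61 was at 122 to 230 FPKM in non-IR hearts and at 320 to 599 FPKM in IR hearts, a log2 change of 1.21 ± 0.20 (adjusted p = 0.00702). The coding gene was thus at a level per length over 100 times that of its lincRNA neighbour in every heart, and the 2 models share no exon bases in M21.

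Gm44698 (chr7:19333129-19337655, plus strand) was at 0.764, 0.121 and 0.752 FPKM in C57-non-IR, at 1.26, 2.03 and 0.926 FPKM in Slit2-non-IR, at 2.09, 1.98 and 1.39 FPKM in C57-IR and at 3.21, 2.38 and 1.52 FPKM in Slit2-IR hearts. The C57BL/6J groups did not overlap, but Slit2-non-IR replicate 2 was as high as several IR hearts. The log2 change over both genotypes was 0.69 ± 0.17 (adjusted p = 0.0489) and passed in 3 of 18 alternatives. Gm44698 reached the level rule through its IR hearts (2.09 against 0.975 FPKM on average), so this difference is linked to its choice and is given as a description. Within 50 kb lie 6 tested protein-coding genes, among them Ercc1, a DNA repair gene and the nearest at 7123 bases, with a log2 change of -0.03. Fosb, a gene of the AP-1 transcription factor, lies 23078 bases away and had a log2 change of 1.16 ± 0.29 (adjusted p = 0.053). The other 4 were between -0.03 and 0.08.

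Of the 6 called lincRNAs, only Dubr, named for binding upstream of Dppa2, had all 6 IR hearts beyond all 6 non-IR hearts. The share of all genes tested that split so is not given here, so the split is a description. Dubr was at 1.76, 2.06 and 1.48 FPKM in C57-non-IR and at 1.56, 1.57 and 1.78 FPKM in Slit2-non-IR hearts, and at 1.07, 1.27 and 1.44 FPKM in C57-IR and 1.03, 1.14 and 1.17 FPKM in Slit2-IR hearts. The means were 1.70 ± 0.21 and 1.18 ± 0.15 FPKM (SD, n = 6), and the log2 value fell by 0.30 ± 0.07 (adjusted p = 0.0331). The nearest tested protein-coding gene, Bbx, is 286904 bases away, with a log2 change of -0.03.

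4632415L05Rik, a single-exon lincRNA of 4099 bases at chr3:19894886-19898984, was at 1.40, 2.48 and 2.38 FPKM in C57-non-IR, at 2.43, 2.73 and 2.24 FPKM in Slit2-non-IR, at 1.44, 1.14 and 1.63 FPKM in C57-IR and at 1.05, 1.37 and 1.21 FPKM in Slit2-IR hearts. One non-IR heart, C57-non-IR replicate 1, lay within the IR range. The log2 value fell by 0.50 ± 0.10 (adjusted p = 0.021), and the mean was 1.74-fold lower. Cp, the ceruloplasmin gene 58070 bases away, had a log2 change of 0.15 (adjusted p = 0.6).

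AU020206 (chr7:75769038-75782099, minus strand) was at 6.17, 5.56 and 4.26 FPKM in C57-non-IR and 4.94, 3.93 and 4.04 FPKM in Slit2-non-IR hearts, and at 4.17, 2.75 and 3.11 FPKM in C57-IR and 2.18, 3.00 and 3.46 FPKM in Slit2-IR hearts. Only C57-IR replicate 1 reached into the non-IR range. The log2 value fell by 0.50 ± 0.12 (adjusted p = 0.0443). Akap13, 14429 bases away and encoding an anchoring protein of protein kinase A, had a log2 change of 0.03 (adjusted p = 0.935).

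Prr33, Bvht and A330009N23Rik lay lower after IR without passing. The 6 IR hearts of Prr33 (2.37 to 4.32 FPKM) all lay below its 6 non-IR hearts (4.52 to 8.65 FPKM). Its log2 difference was -0.50 ± 0.15 (adjusted p = 0.108 by limma). The share of all genes tested that split in this way, as Dubr also did, is not given here, so these splits are descriptions. Prr33 overlaps Lsp1 and Tnnt3 on the opposite strand, so its reads cannot be assigned to it with certainty. Bvht, the Braveheart RNA, was at 13.8, 12.7 and 11.5 FPKM in C57-non-IR, at 8.69, 8.81 and 9.04 FPKM in Slit2-non-IR, at 7.54, 8.92 and 9.99 FPKM in C57-IR and at 5.21, 7.13 and 8.41 FPKM in Slit2-IR hearts. C57-non-IR hearts were the highest of the 4 groups, and the IR difference over both genotypes was -0.41 ± 0.10 (adjusted p = 0.058). A330009N23Rik, which starts 86 bases from Grasp on the other strand, had a difference of -0.40 (adjusted p = 0.062), while Grasp was at 6.08 to 13.2 FPKM in non-IR and 14.1 to 21.2 FPKM in IR hearts, a log2 change of 0.67 (adjusted p = 0.0433). The 2 differences of this pair had opposite signs, while those of Gm17501 and Cyr61 had the same one.

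Across all 136 lincRNAs the change of the lincRNA and that of its nearest tested protein-coding gene had little relation. Over the 46 pairs with a gap of at most 1000 bases, Pearson's r of the IR log2 changes was 0.09 and Spearman's rho -0.09, and 22 pairs had the same sign. For the 42 pairs with gaps of over 5 to 50 kb, r was 0.24 and rho 0.21, and for the 32 pairs farther apart r was -0.04 and rho -0.02. These values are across gene pairs within the same libraries and are descriptions. Of the neighbours in the 136 pairs, 10 passed the IR test, among them Nfil3, Phlda1, Hopx and Bag3, where 3.61% of tested protein-coding genes did. Only Gm17501 of their lincRNA partners passed, where 4.41% of all lincRNAs tested did.

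**Figure D3:**
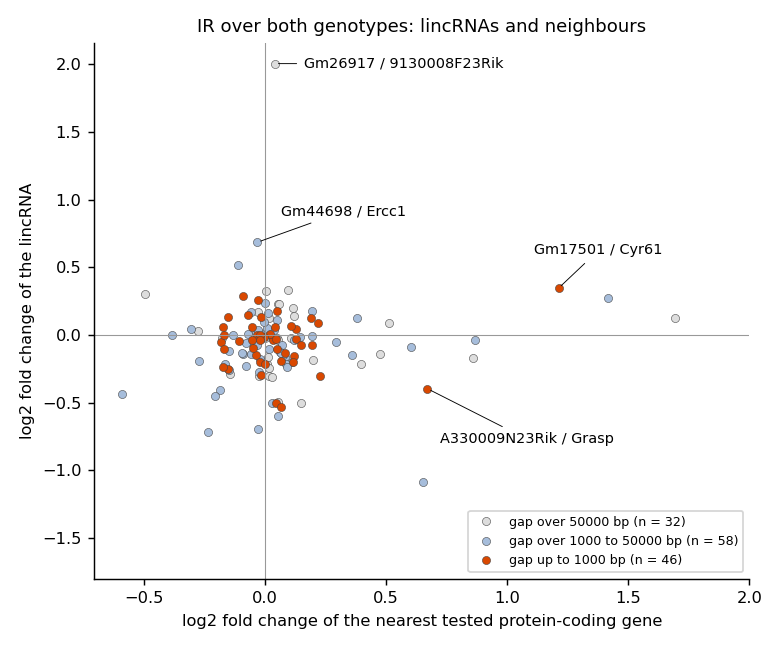
Log2 change of each lincRNA after IR over both genotypes (vertical axis) against that of its nearest tested protein-coding gene (horizontal axis), both on the log2(FPKM + 1) scale; each point is 1 pair, coloured by the gap in bases. Most pairs within 1000 bases cluster about 0 on both axes, Gm17501 and Cyr61 are both above 0, and A330009N23Rik and Grasp lie on opposite sides.

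Within each genotype, 0 lincRNAs passed the adjusted threshold by limma. In C57BL/6J hearts 3 lincRNAs were higher and 17 lower at an unadjusted p under 0.05, against 4.55% and 4.42% of all genes (8.96% in both directions, 0.459% at the adjusted threshold). In Slit2-Tg hearts 4 were higher and 14 lower, against 6.15% and 5.07% (11.2% in both directions, 0.525% at the adjusted threshold). limma-voom on the recovered reads gave 0 adjusted calls in both. The median log2 change was -0.05 in C57BL/6J and -0.04 in Slit2-Tg hearts, against 0.00 and 0.01 over all genes. In C57BL/6J hearts that median turned to 0.01, with 7 lincRNAs higher and 11 lower, without C57-non-IR replicate 1. It was -0.03 without C57-IR replicate 2. Leaving out C57-IR replicate 1 gave -0.10, as did leaving out replicate 2 or replicate 3 of the C57-non-IR hearts. In Slit2-Tg hearts it was -0.08 without Slit2-non-IR replicate 1 and -0.07 without Slit2-IR replicate 1. These comparisons share no libraries: 32 lincRNAs were higher in both, 61 lower in both and 43 in opposite directions, so 68.4% had the same direction, against 65.1% of all genes tested. Pearson's r across lincRNAs was 0.66, or 0.51 without Gm26917, against 0.74 across all genes tested. Spearman's rho was 0.48 across the lincRNAs and 0.48 across all genes tested.

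**Figure D4:**
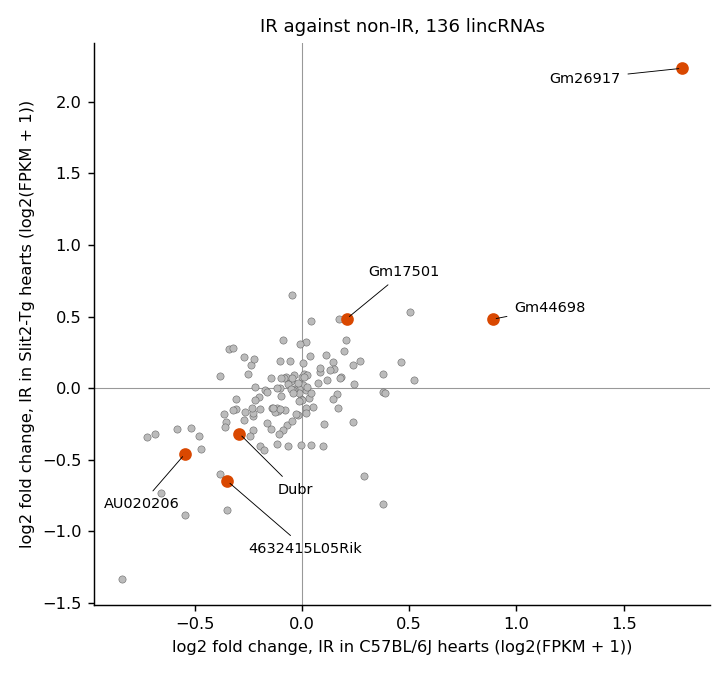
Log2 change with IR in Slit2-Tg hearts (vertical axis) against that in C57BL/6J hearts (horizontal axis) on the log2(FPKM + 1) scale for 136 lincRNAs, 1 point each; orange points are the 6 called over both genotypes. Gm26917 stands far from the rest at 1.77 and 2.24, and 61 lincRNAs lie at the lower left, below 0 on both axes.

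The largest differences within C57BL/6J hearts with an unadjusted p under 0.05 and no overlap of groups were Gm26917 and Gm44698 (0.89 ± 0.24) among those higher, and Prr33 (-0.69 ± 0.21), Gm44421 (-0.58 ± 0.22) and AU020206 (-0.54 ± 0.17) among those lower. Gm26532, whose groups did not overlap either, had a larger difference of -0.84 but a wider error (0.51). Gm44421, 3228 bases from Klf15, a gene of a metabolic transcription factor of cardiomyocytes, was at 1.66 to 3.61 FPKM without IR and 1.02 to 1.60 FPKM after IR, and Klf15 itself had a difference of -0.59 over both genotypes (adjusted p = 0.133). In Slit2-Tg hearts, by the same limits, they were Gm26917 and Gm17501, and on the lower side 2310075C17Rik (-0.81 ± 0.29), AC167229.2 (-0.73 ± 0.28) and 4632415L05Rik (-0.65 ± 0.14). AC158630.2 had a difference of -0.85 ± 0.41 without overlap, above that limit on p. 2310075C17Rik was at 1.33 to 2.07 FPKM without IR and at 1.21, 0.637 and 0 FPKM after it. AC167229.2, whose nearest gene is that of Kit ligand, was at 2.93 to 6.36 FPKM without IR and 1.82 to 2.66 FPKM after it. The smallest adjusted p among these was 0.0617, and the replicate block changed the call of Gm26917 alone.

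Of the lincRNAs, 5 hold a whole microRNA hairpin on their own strand, Gm26532 overlaps one by 2 of 107 bases, and Dubr holds Mir6363 on the opposite strand. The libraries do not measure mature microRNAs, so the host is all that can be read here. The mature sequences (RefSeq, GRCm38.p6) are given with the seed, bases 2 to 8, in capitals, because the seed sets which targets each would share. The 10 of them named here all differ in seed.
mmu-miR-24-3p: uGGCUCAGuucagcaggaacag
mmu-miR-24-2-5p: gUGCCUACugagcugaaacagu
mmu-miR-675-3p: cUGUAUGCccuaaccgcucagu
mmu-miR-675-5p: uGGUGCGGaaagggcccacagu
mmu-miR-30c-5p: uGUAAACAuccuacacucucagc
mmu-miR-101a-3p: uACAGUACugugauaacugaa
mmu-miR-1839-5p: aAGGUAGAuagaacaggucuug
mmu-let-7d-5p: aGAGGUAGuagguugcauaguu
mmu-let-7d-3p: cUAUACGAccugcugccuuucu
mmu-miR-6363: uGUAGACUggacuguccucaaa
The let-7d and miR-1839 seeds contain the run GGUAG at different offsets, which places them in different seed groups.

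Gm26532 (chr8:84208920-84209609, plus strand) begins in the last 2 bases of the Mir24-2 hairpin and so covers what follows the miR-23a, miR-27a and miR-24-2 cluster. It was at 18.1, 16.2 and 20.7 FPKM in C57-non-IR, at 9.99, 28.8 and 26.7 FPKM in Slit2-non-IR, at 6.89, 15.1 and 8.83 FPKM in C57-IR and at 2.57, 14.9 and 8.91 FPKM in Slit2-IR hearts. All IR hearts lay below all C57-non-IR hearts, and Slit2-non-IR replicate 1 lay within the IR range. The log2 difference with IR was -1.09 over both genotypes (adjusted p = 0.149), and Zswim4, 1069 bases away, was higher by 0.65 (adjusted p = 0.021). H19, an imprinted RNA with miR-675 in an exon, ranged from 1.93 to 19.9 FPKM, both extremes in Slit2-IR hearts, and had a log2 difference of -0.27 (adjusted p = 0.832). Gm27028 with miR-30c-2 was at 1.36 to 6.66 FPKM, E130102H24Rik with miR-101a at 1.42 to 4.48 FPKM, 2900076A07Rik with miR-1839 at 5.37 to 8.99 FPKM and 6720427I07Rik with let-7d at 0.321 to 2.04 FPKM. None of these 6 passed the adjusted threshold in any contrast of the main test, and Gm26532 passed for IR over both genotypes with the replicate block (adjusted p = 0.0385).

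Between Slit2-Tg and C57BL/6J hearts no lincRNA passed the adjusted threshold. By limma, 0 of 136 passed an adjusted p of 0.05 without IR, after IR or over both perfusions, where 0.0394%, 0.0459% and 0.131% of all genes did. At an unadjusted p under 0.05 there were 12 without IR (9 higher and 3 lower in Slit2-Tg hearts), 9 after IR (6 and 3) and 16 over both (10 and 6), against 3.19%, 3.16% and 4.13% of all genes. limma-voom on the recovered reads gave 0 adjusted calls in the 3 comparisons. The medians were -0.05, -0.03 and -0.03, and each turned sign without a single library, so no direction is read from them: without IR it was 0.03 when C57-non-IR replicate 1 was left out, after IR 0.01 when C57-IR replicate 1 was, and over both perfusions 0.01 when C57-non-IR replicate 1 was.

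AC158630.2 (chr10:18879735-18887029, minus strand), of no known role, had the largest difference by genotype. It was at 1.48, 2.05 and 1.22 FPKM in C57-non-IR and at 1.21, 0.51 and 1.43 FPKM in C57-IR hearts. In Slit2-non-IR hearts it was at 8.35, 8.38 and 7.96 FPKM, and in Slit2-IR hearts at 6.65, 1.13 and 7.18 FPKM. Thus 5 of the 6 Slit2-Tg hearts were above all C57BL/6J hearts, and Slit2-IR replicate 2, the library with the highest value of the mouse Slit2 row, was in the C57BL/6J range. Without IR the mean was 5.19-fold higher, with a log2 difference of 1.85 ± 0.41 (adjusted p = 0.575), and over both perfusions the difference was 1.60 (adjusted p = 0.0904). In the limma fit without Slit2-IR replicate 2 it passed, at 1.85 ± 0.17 without IR (adjusted p = 0.00455), 1.98 ± 0.20 after IR (adjusted p = 0.00518) and 1.91 ± 0.13 over both (adjusted p = 0.000264). The library left out there was the only Slit2-Tg heart in the C57BL/6J range. Its removal narrows the spread by construction, so these values describe the remaining hearts and are no independent support. Of 10 other tested genes within 1 Mb, 0 were called by limma and 1 had an unadjusted p under 0.05, and their differences ran from -0.15 to 0.18. The nearest, Perp, a gene of a desmosome protein 22662 bases away, had 0.18.

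**Figure D5:**
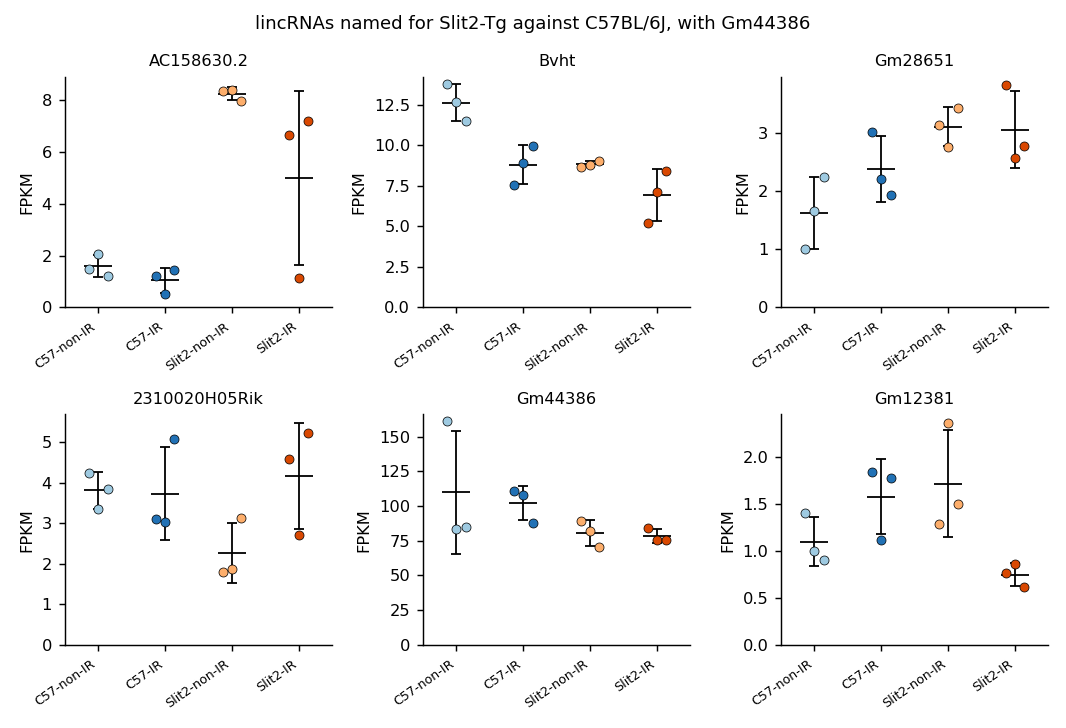
FPKM (vertical axes, from 0) of 6 lincRNAs by group (horizontal axes), 5 of them named for a difference between Slit2-Tg and C57BL/6J hearts and Gm44386 as the most abundant; each point is 1 heart, and bars are the mean ± SD of 3. AC158630.2 is at 6.65 to 8.38 FPKM in 5 Slit2-Tg hearts and at 1.13 FPKM in the sixth, against at most 2.05 FPKM in C57BL/6J hearts.

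The other lincRNAs with an unadjusted p under 0.05 and no overlap of the genotype groups within one perfusion had smaller differences, and their smallest adjusted p was 0.825 (CT009718.2 without IR). Without IR, Gm28651 was at 2.76 to 3.44 FPKM in Slit2-Tg against 1.003 to 2.24 FPKM in C57BL/6J hearts (log2 difference 0.67 ± 0.18), and its head-to-head neighbour 3425401B19Rik had 0.36 over both perfusions. Gm44698 also lay higher in Slit2-non-IR hearts, by 0.64 ± 0.24. CT009718.2 (0.51 ± 0.13), D830013O20Rik (0.44 ± 0.20), A430046D13Rik (0.36 ± 0.10) and C030037D09Rik (0.30 ± 0.08) also had higher values there. On the lower side were 2310020H05Rik (-0.58 ± 0.23, 1.81 to 3.13 against 3.35 to 4.24 FPKM), Bvht (-0.47 ± 0.15) and Gm17501 (-0.30 ± 0.10). After IR, Gm28979 (0.55 ± 0.14), Gm32391 (0.32 ± 0.11) and 2700046G09Rik (0.30 ± 0.09) were higher and Gm12381 (-0.55 ± 0.16) was lower. Gm32391 lies 4087 bases from Atp1b1, the gene of a sodium pump subunit, and 2700046G09Rik shares 10 exon bases with Sgms1 on the other strand.

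The interaction of genotype and IR was tested on the same scale. By limma, 0 lincRNAs passed the adjusted threshold and 0% of all genes did. At an unadjusted p under 0.05 there were 6 lincRNAs, against 1.86% of all genes, and limma-voom gave 0 adjusted calls.

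The lincRNAs varied more between hearts of a group than protein-coding genes. Their median coefficient of variation within groups was 26.0%, against 13.4% for 9761 protein-coding genes of 1 FPKM up to the level of the highest lincRNA. They also had fewer reads, a median of 61.7 against 497 per library. Among genes with 100 to 300 reads per library the medians were 19.1% for 37 lincRNAs and 15.3% for 2448 protein-coding genes, and with 30 to 100 reads they were 27.9% for 51 and 23.5% for 592. With 300 to 1000 reads they were 21.1% for only 9 lincRNAs and 12.1% for 4194 protein-coding genes. Within these ranges the lincRNAs still had fewer reads, a median of 137 against 198, of 52.4 against 73.6 and of 397 against 541. How much of the remaining gap is counting error was not tested. The widest spread belonged to 5430431A17Rik (116%), which was at 29.8 FPKM in C57-non-IR replicate 1 and at 2.56 to 9.73 FPKM in the other 11 hearts. Gm14267 (83.8%) ranged from 0.221 to 3.44 FPKM and H19 had 64.8%. C57-non-IR replicate 1 held the highest value of its group for 76 of 137 lincRNAs and C57-IR replicate 1 for 72, whereas no other library did so for more than 56.

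Of the listed long noncoding RNAs described in heart or vessel, H19, Bvht, 2900097C17Rik, 1700020I14Rik and Gm42105 were members. Gm42105 carries the M21 name Chaer1, an RNA known for a role in cardiac hypertrophy, and was at 3.03 FPKM (1.71 to 3.86 FPKM), with a log2 difference of 0.13 ± 0.15 for IR over both genotypes (adjusted p = 0.778). Mhrt, a transcript of the myosin heavy chain locus, was at 15.6 FPKM but is classed as antisense, and Tug1 (3.52 FPKM), AV026068 or Hand2os1 (3.15 FPKM) and Firre (2.93 FPKM) are classed as processed transcripts. Meg3 (0.494 FPKM), Carmn (0.248 FPKM), Pvt1 (0.108 FPKM), Miat and Mirt1 were classed as lincRNA but stayed below 1 FPKM. Among imprinted RNAs, H19 was a member, and Peg13 (14.3 FPKM) is classed as sense intronic. Of the hosts of microRNAs in the list, H19 alone was a member, and Mir22hg (11.01 FPKM) and Mir133a-1hg (12.2 FPKM) have other classes.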

How the data were processed

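RNA was sequenced in 12 libraries, 3 for each combination of genotype and perfusion. The authors deposited FPKM per gene and library with Ensembl identifiers, gene types, lengths and GRCm38 coordinates, and the submitters' processing notes name HISAT2 and mm10. The counting tool, annotation release and use of strand are not given in the sources used here. Multiplying FPKM by gene length gave whole reads (within 0.05 reads) for 100% of values in each library, and these recovered reads were 16601154 to 24841291 per library, and 3 to 10 per library for Gm45353, the 1 of the 137 lincRNAs that failed the filter. At least 10 reads were found in every library for 113 of the 137. There were 0 unmapped columns.

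A gene was tested (15240 in all) if 3 or more libraries reached what 10 reads amount to at median depth and the reads totalled 15 or more. log2(FPKM + 1) was fitted with limma (moderated statistics, trended variance), 4 groups in 1 fit without covariates, two-sided, with Benjamini-Hochberg adjustment over all tested genes in each of 7 contrasts at 0.05. It was tested on simulated data. Deviations of same-numbered libraries were positively correlated in every comparison of single groups. All 3 correlations were over 0.1 in IR in Slit2-Tg hearts (0.143 to 0.295) and in Slit2-Tg after IR (0.154 to 0.362). In IR in C57BL/6J hearts (0.0833 to 0.295) and in Slit2-Tg without IR (0.0378 to 0.324) all were positive, but the lowest was under 0.1. The pairing rests on these values, since the labels name no shared litter or day.

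The members and the lists were chosen with earlier results of these data known. Named lincRNAs were the 12 highest, each one called in a contrast, the 3 largest rises and falls per contrast at an unadjusted p under 0.05 without overlap of groups, 3 on either side of the threshold, members of the lists and the 3 most variable, with their nearest tested coding gene. Others (A330009N23Rik, D830013O20Rik, A430046D13Rik, C030037D09Rik, CT009718.2, Gm26532, Fosb, the microRNA hosts and the called neighbours) were chosen after their values were seen. Lists covered ribosomal, imprinted, microRNA host and heart lncRNAs, rows set apart by name, RNA turnover and 3′ end genes, and cell type markers. Alternatives were a pseudocount of 0.1, no filter beyond 1 read, 10 reads in every library, upper-quartile and nuclear-read scaling, the groups compared alone, a replicate block, limma-voom on recovered reads and each library left out. Structure came from GENCODE M21, and promoters and microRNAs from RefSeq (GRCm38.p6). The fits used limma 3.58.1 under R 4.3.3, and tables and plots were made in Python 3.11.15 (matplotlib 3.10.9, pandas 2.3.3).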

Additional observations from a re-analysis of the deposited data

Results flagged for a closer look

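For 6 of 136 lincRNAs (4.41%) the interaction of genotype and IR had an unadjusted p under 0.05 in limma, against 1.86% of all genes. All 6 had an adjusted p of 0.9998, so none passed. Gm12381 had an interaction of -0.91 ± 0.23 (SE, log2 scale), with IR differences of 0.29 in C57BL/6J and -0.62 in Slit2-Tg hearts. A430046D13Rik had -0.50 ± 0.14 (0.10 and -0.40), 2310075C17Rik -1.19 ± 0.41 (0.38 and -0.81) and CT009718.2 -0.47 ± 0.19 (0.24 and -0.24). Gm32391 had 0.49 ± 0.15 (-0.27 and 0.22) and Gm28979 0.60 ± 0.20 (-0.32 and 0.28). In these 6 the direction of the IR difference was opposite in the 2 genotypes, but they were picked by their interaction, which favours opposite directions. Groups of 3 hearts are too small for a test of single libraries that stand apart.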

How the results depend on the processing

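For the lincRNAs called or among the largest rises and falls, 27 comparisons were refitted, and 0 refits turned the direction. The 6 called comparisons kept their call in 65 of 113 refits and lost it in 48, and the others gained one in 7 of 416. The count of lincRNAs called for IR over both genotypes, 6 in the report, was 1 with no filter beyond 1 read and 10 with the replicate block, which added Gm26532 (adjusted p = 0.0385), Gm27202 (0.0363), A330009N23Rik (0.0243) and Bvht (0.0468). It was 1 to 6 when single libraries were left out: 1 when replicate 2 of C57-non-IR or of C57-IR was left out, 2 without Slit2-non-IR replicate 3, Slit2-IR replicate 1 or Slit2-IR replicate 2, and 3 without C57-non-IR replicate 1 or without replicate 1 or 2 of Slit2-non-IR. Gm26917 was called in each of these. For IR in Slit2-Tg hearts the count rose from 0 to 1 with 10 reads in every library (Gm17501), with the replicate block (Gm26917), and without C57-non-IR replicate 1, C57-IR replicate 1 or C57-IR replicate 2 (range 0 to 1). For Slit2-Tg without IR it rose from 0 to 1 with only the groups compared, where AC158630.2 had an adjusted p of 0.0106. Leaving out single libraries gave 0 to 1 for IR in C57BL/6J hearts (1 without C57-IR replicate 1, Gm28901) and 0 to 1 for Slit2-Tg without IR, after IR and over both perfusions (1 without Slit2-IR replicate 2, AC158630.2). The interaction stayed at 0 throughout. In IR in Slit2-Tg hearts and in Slit2-Tg after IR, where all 3 correlations were over 0.1, the replicate block changed no other call. The scalings moved the median of all genes by at most 0.072 on the log2 scale, and the lincRNA median for IR over both genotypes lay 0.043 below that of all genes in the main test, 0.055 below under nuclear-read scaling, 0.072 below with a pseudocount of 0.1, and 0.025 (without C57-non-IR replicate 1) to 0.097 (without C57-non-IR replicate 3) below when single libraries were left out. The cause was not tested. Genes with under 10 reads in a library, 24 of the 137, are measured with counting error of the size of the differences reported.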
